A study of Mus musculus with 20 samples.

Results

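Mouse embryonic stem cells that depended on CTCF S354F were compared with cells that depended on CTCF K365T, 2 single amino acid substitutions in the same DNA-binding unit of the protein. Each genotype has 1 list of open-chromatin peaks from Omni-ATAC-seq, in which a transposase cuts accessible DNA. The S354F list holds 140516 distinct intervals and the K365T list 139580, and a peak counted as found in the other list when at least 1 bp overlapped. Merged together, they cover 160854 regions, out of 222457 regions over all 10 lists of the series. A peak with no overlap in the other mutant is called S354F-only or K365T-only, and the WT list served only to tell whether such a peak is also a WT peak.

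CTCF is a DNA-binding protein whose row of zinc fingers reads long, partly conserved sites. With the ring-shaped cohesin complex it halts loop extrusion and so sets the borders of chromatin loops and domains, and it shifts nucleosomes around the sites it binds. That both residues lie in zinc finger 4 comes from general knowledge of CTCF, not from the labels.

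All groups used here, the WT control included, are E14Tg2a cells of strain 129/Ola, grown without feeder cells in serum with leukemia inhibitory factor, the GSK3 inhibitor CHIR99021 and the MEK inhibitor PD0325901. All received 500 µM indole-3-acetic acid, which removes the endogenous, degron-tagged CTCF. They also received 1 µg/ml doxycycline, which turns on a transgene of the CTCF form that names the group. The treatment lasted 2 days. Besides S354F, K365T and WT, these groups are the CTCF substitutions H455R, Q418R, R339Q, R342C, R377C, R377H and R448Q, whose lists serve for comparison. The labels call the lines clones derived from E14Tg2a, and the sources used here give neither the number of clones per genotype nor the amount of transgenic protein. Each genotype has 2 replicates of 50000 cells per reaction, with about 50 M read pairs of 150 bp planned, and whether they were separate cultures is not stated.

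The authors pooled both replicates into each list, so the spread between replicates cannot be read from these data, and the 2 genotypes are compared without a test. The 95% intervals below are exact binomial (Clopper-Pearson) and cover counting error over peaks only. The value that each peak carries was read, from its range and steps, as a fold over expected coverage. Strength is compared as the percentile of this value within its own list, and folds of named sites are printed beside it. The steps between these values put the expected background coverage at 4.405 for S354F, 3.49 for K365T and 5.96 for WT. The library codes in the peak names lie 1 apart for S354F, 42 apart for K365T and 28 apart for WT. Whether the distant codes mark another library batch is not stated, and such a batch could not be told apart from the genotype. The lists also skip 1.34% (S354F) and 1.31% (K365T) of their own peak numbers, for a reason that no source used here gives. Where a list skips numbers at a site, the lack of a peak there cannot be told apart from a peak left out after calling, and such sites are named.

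The sequences that follow are examples of sites with a peak in one mutant and no overlapping peak in the other. They are stronger than most such one-list peaks, whose median percentile was 20.3 for S354F and 24.2 for K365T. They are the promoters whose one-list peak was strongest, 2 per genotype, among protein-coding genes with a peak in the 250 bases before their RefSeq start (GRCm38.p6, the same build as mm10). Sites where the other list skips peak numbers, and chromosomes 1, 11, 12, 13 and 18, were left out of this choice. Capitals mark the bases inside the peak, and each sequence is written 5′ to 3′ on the strand of its gene. The S354F-only examples are the promoters of Dab2ip, a Ras GTPase-activating protein, at chr2:35558208-35558457 on the plus strand and of Rmdn2, a regulator of microtubule dynamics, at chr17:79626425-79626674 on the plus strand. The K365T-only examples are those of Fibin, a secreted factor, at chr2:110362994-110363243 on the minus strand and of Lrp2bp, a binding partner of the receptor megalin, at chr8:46010352-46010601 on the plus strand.

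Dab2ip: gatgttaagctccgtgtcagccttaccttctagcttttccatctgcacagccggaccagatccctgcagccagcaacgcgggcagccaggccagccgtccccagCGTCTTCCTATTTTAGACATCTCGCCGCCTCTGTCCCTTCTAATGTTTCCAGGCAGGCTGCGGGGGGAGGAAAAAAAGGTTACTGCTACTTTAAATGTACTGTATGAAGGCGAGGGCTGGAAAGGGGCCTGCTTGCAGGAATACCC
Rmdn2: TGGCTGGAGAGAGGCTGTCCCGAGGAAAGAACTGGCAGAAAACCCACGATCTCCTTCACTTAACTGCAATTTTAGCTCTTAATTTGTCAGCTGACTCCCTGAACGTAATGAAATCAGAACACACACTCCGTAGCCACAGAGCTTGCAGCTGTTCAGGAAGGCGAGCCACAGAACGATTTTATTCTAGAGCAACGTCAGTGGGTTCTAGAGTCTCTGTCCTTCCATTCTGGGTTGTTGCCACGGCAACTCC
Fibin: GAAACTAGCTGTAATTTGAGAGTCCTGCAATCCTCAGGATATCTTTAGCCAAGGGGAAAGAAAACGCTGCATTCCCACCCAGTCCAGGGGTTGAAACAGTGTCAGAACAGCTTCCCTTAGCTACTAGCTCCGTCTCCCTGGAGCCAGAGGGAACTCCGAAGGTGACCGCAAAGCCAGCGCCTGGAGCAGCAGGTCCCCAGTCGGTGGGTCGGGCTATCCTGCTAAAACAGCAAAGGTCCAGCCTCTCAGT
Lrp2bp: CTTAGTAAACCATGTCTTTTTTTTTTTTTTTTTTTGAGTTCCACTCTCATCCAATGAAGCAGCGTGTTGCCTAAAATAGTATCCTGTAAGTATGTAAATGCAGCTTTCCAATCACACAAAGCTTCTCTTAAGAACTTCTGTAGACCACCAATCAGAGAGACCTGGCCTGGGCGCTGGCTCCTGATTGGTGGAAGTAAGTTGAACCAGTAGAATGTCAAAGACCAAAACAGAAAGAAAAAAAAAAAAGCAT

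The Dab2ip peak stood at percentile 62.2 of the S354F list, was present in WT and in all 8 other lists, and lay 6280 bp from the nearest K365T peak. The Rmdn2 peak stood at percentile 59.0, was present in 7 of the other 8 lists, WT among them, and lay 652 bp from a K365T peak. The Fibin peak stood at percentile 88.6 of the K365T list, was present in all 8 other lists, and lay 169678 bp from the nearest S354F peak. The Lrp2bp peak stood at percentile 76.0, was present in 7 of the other lists including WT, and lay 4775 bp from an S354F peak. All 4 sites had a peak in WT and in most other mutants. Each is thus a WT site without an overlapping peak in 1 of the 2 zinc finger 4 mutants, rather than one that WT cells lack.

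Most open sites were common to both mutants, and those that were not were mostly weak. Of the S354F peaks, 113051 (80.5%, interval 80.2 to 80.7) had a K365T peak, and 27465 (19.5%) did not. Of the K365T peaks, 118379 (84.8%, interval 84.6 to 85.0) had an S354F peak, and 21201 (15.2%) did not. The S354F list thus held more one-list peaks. It also covered more sequence, 74.8 Mb against 67.2 Mb, had wider peaks, with a median of 426 bp against 385 bp, and had the higher background coverage; the part of depth in the difference was not tested. Of the shared S354F peaks, 5932 (5.25%) overlapped at least 2 K365T peaks, and of the shared K365T peaks, 858 (0.725%) overlapped at least 2 S354F peaks.

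Absence from the other mutant broadly followed peak strength. The weakest 5% of the K365T peaks broke the order, with 70.3% shared against 64.0% of the next 5%. Among the weakest 20% of each list, 48.6% of the S354F peaks and 32.3% of the K365T peaks were in one list only. Among the strongest 20%, 23 of 28199 S354F peaks (0.0816%, interval 0.0517 to 0.122) and 98 of 27917 K365T peaks (0.351%, interval 0.285 to 0.428) were. The order of the mutants was opposite at the weak and the strong end at this overlap. With an overlap of 50% of both peaks required, the strong shares were 3.13% for S354F (884 peaks) and 3.52% for K365T (982 peaks), so the count of strong one-list peaks and the gap between the mutants depend on how overlap is defined. Of the 98 strong K365T-only peaks, 41 lay on chromosomes 1, 11, 12 and 13, against 4 of the 23 strong S354F-only peaks. Those chromosomes hold 23.4% of all K365T peaks and 22.0% of all S354F peaks. Without them the strong one-list peaks were 57 of 21424 for K365T (0.266%) and 19 of 21970 for S354F (0.0865%).

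The WT list held 18454 of the S354F-only peaks (67.2%, interval 66.6 to 67.7) and 12499 of the K365T-only peaks (59.0%, interval 58.3 to 59.6). Of the peaks common to both mutants, 97.0% of the S354F and 96.8% of the K365T ones were WT peaks. Among the strong one-list peaks, 22 of 23 for S354F and 85 of 98 for K365T were WT peaks. Without a WT peak were 9011 S354F-only and 8702 K365T-only peaks. Which of the kinds is the larger depends on the setting: with every list cut to the length of the shortest, WT peaks were 46.2% of the S354F-only and 40.05% of the K365T-only peaks, and with an overlap of 50% of both peaks required they were 59.4% and 45.3%. The strongest one-list peak without a WT peak stood at percentile 82.3 for S354F and 90.4 for K365T.

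**Figure D1:**
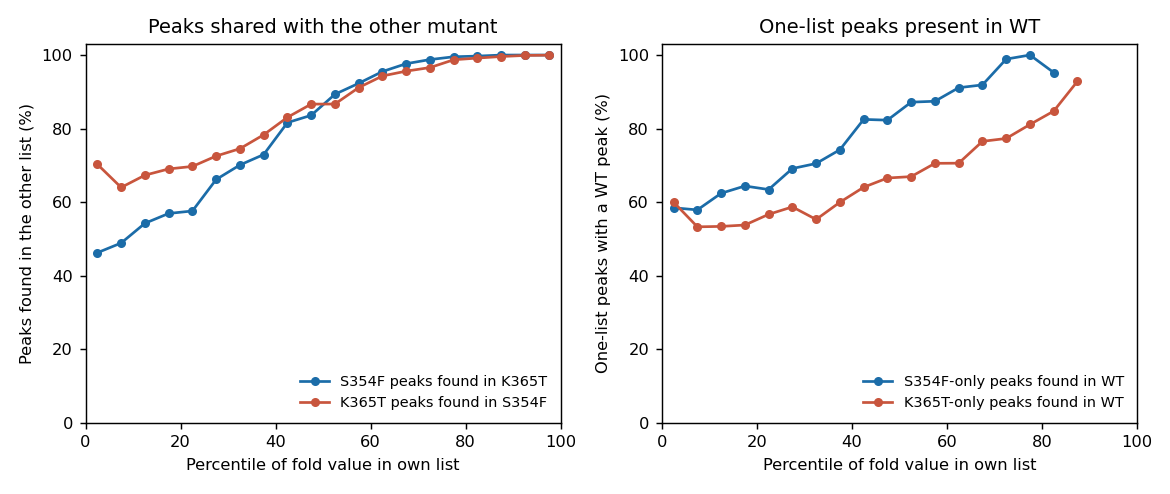
Left, percent of S354F peaks (blue) and K365T peaks (red) found in the other list, in 20 bins of 5 percentiles of the fold value in the own list; right, percent of the one-list peaks in each bin that overlap a WT peak, for bins with at least 20 one-list peaks. Nearly all strong peaks are shared, S354F has the lower share among weak peaks, and the WT share of one-list peaks is higher among strong than among weak peaks, with little change for K365T over its weakest 8 bins (53.3% to 60.0%).

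One-list peaks were narrower than shared peaks and seldom lay at genes' ends. Their median width was 261 bp (S354F) and 240 bp (K365T), against 495 and 432 bp for shared peaks. Only 6.39% of S354F-only and 6.32% of K365T-only peaks lay within 1 kb of a gene's end, meaning its start or its finish, against 15.9% and 16.1% of the shared peaks. In the 250 bases before a start, the promoter window used here, lay 1.43% of S354F-only and 1.57% of K365T-only peaks, against 11% and 10.6% of the shared ones. The mutants differed in where the remaining one-list peaks lay. In gene bodies were 55.6% of S354F-only and 50.2% of K365T-only peaks, against 45.7% and 45.8% of the shared ones. Intergenic were 38.0% (interval 37.4 to 38.6) and 43.5% (interval 42.8 to 44.1), against 38.4% and 38.1% of the shared ones. With every bin of strength given equal weight, 12.8% of gene-end, 20.5% of gene-body and 19.5% of intergenic S354F peaks were absent from K365T, and 8.91%, 15.0% and 16.9% of K365T peaks in the same order were absent from S354F. Gene-end peaks were thus the most often shared at equal strength as well.

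The strongest S354F-only peaks off chromosomes 1, 11, 12 and 13 were distal sites, with 1 exception. The exception was the peak at the end of Trmt10c, a subunit of mitochondrial RNase P, at chr16:56037357-56038058, with a fold of 17.2 (percentile 97.5). It was present in WT and 5 other mutants, but the K365T list skips 3 peak numbers at this place, so its absence cannot be taken as the lack of a call. The next was intergenic, 48.8 kb from Vgll3, a cofactor of TEAD transcription factors, with a fold of 10.7 (percentile 86.1) in S354F and peaks in WT and 5 other mutants. A peak inside Rbms1, which encodes an RNA-binding protein, had a fold of 10.4 (percentile 85.0) and was in all 8 other lists. Inside Rbm20, a splicing factor, a peak had a fold of 9.99 (percentile 83.7) and was in 7 of the 8. The desmosomal cadherin Dsc2 held a peak with a fold of 9.62 (percentile 82.3), and the gene of the acyl-CoA oxidase-like protein Acoxl one with a fold of 9.81 (percentile 83.0). The others lay near Marcks, a substrate of protein kinase C, near Shroom2, an actin-binding protein, near the Myc-like gene Mycs, and near Xiap, an inhibitor of apoptosis, at percentiles 82.3 to 84.3. The peak near Xiap was the only one of these 10 without a WT peak. At Mycs the numbering could not be read, and at the other 8 sites the K365T list skips no number.

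The strongest K365T-only peaks stood higher in their list. An intergenic peak 12.3 kb from Mrps22, a mitochondrial ribosomal protein, at chr9:98614020-98614381 had a fold of 15.9 (percentile 97.0), and a peak 5.76 kb from the Wnt ligand gene Wnt8b, at chr19:44487229-44487709, had a fold of 14.5 (percentile 95.3). A peak inside Synpo2, an actin-associated protein of muscle, had a fold of 13.5 (percentile 93.8). All 3 were present in WT and every other mutant list but S354F, which skips no number there. The same held for peaks near Prmt3, a protein arginine methyltransferase (percentile 93.4), near Csf2ra, a subunit of the GM-CSF receptor (93.2), near Rapgef1, an exchange factor for Rap1 (89.8), and near Ubr2, a ubiquitin ligase of the N-degron pathway (89.5).

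Another 3 of these 10 K365T-only peaks carried a limit or lacked a WT peak. The peak at the end of Lsm14b, an RNA-binding protein (fold 13.4, percentile 93.6), lies where the S354F list skips 13 peak numbers. The peak 87.5 kb from Ankrd28 (fold 11.8, percentile 90.4) was found in no other list, and the S354F list skips 1 number there. The peak inside Ttc21b, a component of intraflagellar transport (fold 11.8, percentile 90.3), had no WT peak but was present in R377H and R448Q.

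Some sites were missing from a single list of the 10. Peaks present in S354F and all 8 other lists but not in K365T numbered 1962, and peaks present in K365T and all 8 others but not in S354F numbered 817. They were of middling strength, with a median, over sites, of the median percentile across the 9 lists of 38.1 and 43.6. Those missing from K365T alone were led by an intergenic site 285 kb from H2ab1, where a K365T peak lay 96 bp away and the S354F peak itself stood at percentile 29.8, against a median of 88.3 over the 9 lists. The next were a peak inside Adam2, a sperm surface protein, with its middle 0.958 kb from an end of the gene (median percentile 86.3 over 9 lists), the intergenic peak 334 kb from Marcks (84.3), a peak 3.33 kb from Fbxw24 (83.7) and one 25.5 kb from the phosphofructokinase gene Pfkp (82.9). At these 4 sites the nearest K365T peak was 2007 to 32406 bp away and no number was skipped.

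Of the 5 leading sites missing from S354F alone, only 2 were free of such limits. The peaks in Cdhr3 and near Slc17a5 had an S354F peak 124 and 138 bp away, and at the peak inside Rap1gap2 (median percentile 91.2) the S354F list skips 2 numbers. The peak 37.0 kb from Rapgef1 (median percentile 84.7) and the peak inside Angpt4, an angiopoietin (84.0), had no S354F peak within 8306 and 7806 bp.

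Across all one-list peaks, S354F-only sites recurred more widely in the series. Of the S354F-only peaks 2138 were in none of the 8 other lists (7.78%) and 1962 in all 8 (7.14%), against 2396 (11.3%) and 817 (3.85%) of the K365T-only peaks. The S354F-only peaks were found most often in H455R (60.7%) and R377C (60.4%), besides WT, and 51.1% were found in R342C. The K365T-only peaks were found most often in R448Q (53%), again besides WT, with 43.2% in R377C and 33.3% in R342C. The R448Q list, with 145504 peaks, held 40.8% of the S354F-only peaks. The lists differ in length, with R339Q the shortest and WT, with 171719 peaks, the longest, and the shares were not adjusted for length.

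**Figure D2:**
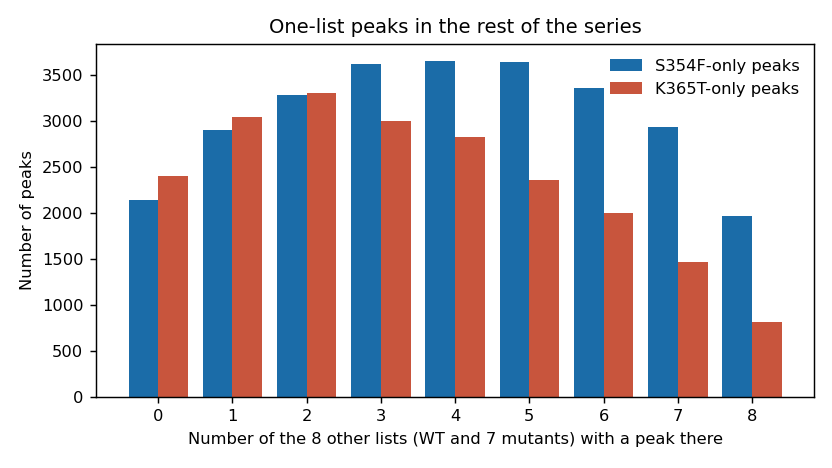
Number of S354F-only (blue) and K365T-only (red) peaks by how many of the 8 other lists (WT and 7 mutants) have a peak at the same place. K365T-only peaks are the more numerous in the bins of 0, 1 and 2 other lists, and S354F-only peaks in the bins of 3 and more.

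Sharing a zinc finger did not place this pair apart from other pairs of mutants. With every mutant list trimmed to its strongest peaks, as many as the shortest list (R339Q) holds, 84.0% of K365T peaks were found in S354F and 81.2% of S354F peaks in K365T, a mean of 82.6%. That mean ranked 9 of the 36 pairs of mutants, which ran from 77.6% (R448Q and H455R) to 85.6% (R342C and R377C), and it ranked 10 without chromosomes 1, 11, 12 and 13. S354F matched R377C (85.4%), R342C (84.6%) and H455R (83.2%) more than it matched K365T, and K365T matched S354F, R377H (82.6%) and R377C (82.6%) about equally. R377C and R377H, which change the same residue, ranked 5 with 84.1%. These are descriptions of single lists, and the pairs share lists with one another.

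Where both mutants had 1 matching peak, its rank was alike in both. Over the 105528 one-to-one pairs the rank correlation (Spearman) across peaks was 0.87; the points share the genome sequence and the peak caller, and the value is a description. The median difference, S354F minus K365T, was 0.509 percentile points. A peak stood more than 30 points higher in S354F in 3863 pairs (3.66%) and more than 30 points higher in K365T in 3166 pairs (3.0%). At gene ends such shifts were rarer: 1.56% of 16055 pairs were higher in S354F and 1.27% higher in K365T, against 4.10% and 3.76% of the 40868 intergenic pairs. Gene-end pairs were also stronger, with median percentiles of 77.9 in S354F and 76.4 in K365T, against 57.8 in both for intergenic pairs. Shifts were not compared at equal strength.

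**Figure D3:**
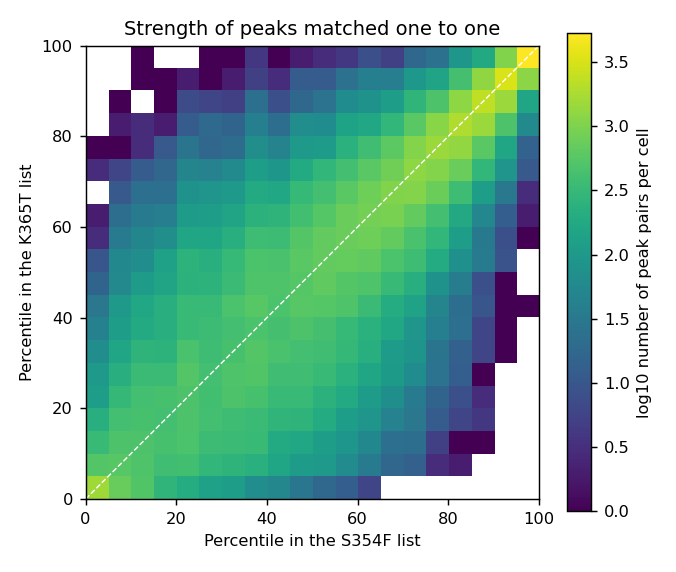
The 105528 one-to-one peak pairs by percentile of fold in the S354F list (horizontal) and in the K365T list (vertical), as the log10 number of pairs in each cell of 5 by 5 percentiles, with the line of equal percentile dashed and empty cells white. Most pairs lie along the line, with the most, 5287, in the cell of the strongest peaks of both lists, and the corners off the line hold few.

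The pairs that moved most, off the 4 chromosomes, were WT sites, and 8 of the 10 were intergenic. A peak 15.1 kb from Foxb2, a forkhead transcription factor, stood at percentile 83.3 (fold 9.87) in S354F and 9.22 (fold 3.12) in K365T. A peak 72.7 kb from Wdr11 stood at 86.1 and 13.8, one 28.8 kb from the riboflavin transporter gene Slc52a3 at 80.9 and 9.22, one 7.004 kb from Eef2kmt at 76.5 and 5.56, and one inside the pantothenate kinase gene Pank1 at 74.3 and 5.56. In the other direction, a peak 41.9 kb from Plet1, a surface protein of placental and epithelial progenitors, stood at 12.2 (fold 3.15) in S354F and 96.3 (fold 15.3) in K365T. The peak in the predicted gene Gm42048 stood at 12.2 and 92.3, one 66.2 kb from Bend4 at 8.78 and 85.6, one 49.7 kb from Ica1 at 16.1 and 92.3, and one 10.7 kb from Ccser2 at 5.84 and 80.5. Each of these 10 sites was thus strong in one mutant and among the weak peaks of the other, except that Pank1 and Eef2kmt fell below the strongest 20% of the S354F list.

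The direction of the difference varied by chromosome. On chromosome 1, 22.9% of the K365T peaks and 13.6% of the S354F peaks were in one list only, and on chromosome 11 these shares were 19.9% and 14.6%. On chromosomes 3 and 8 K365T-only peaks were also the larger share, at 19.8% against 16.3% and 18.4% against 17.3%. On every other chromosome but Y, which held 14 and 16 peaks, S354F-only peaks were the larger share, up to 23.6% against 12.8% on chromosome 12. Chromosome 1 held 7.62% of all K365T peaks, 6.54% of all S354F peaks and 6.54% of all WT peaks. Chromosome 11 held 8.02%, 7.17% and 7.16% in the same order. Whether the lines differed in chromosome copy number was not tested.

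**Figure D4:**
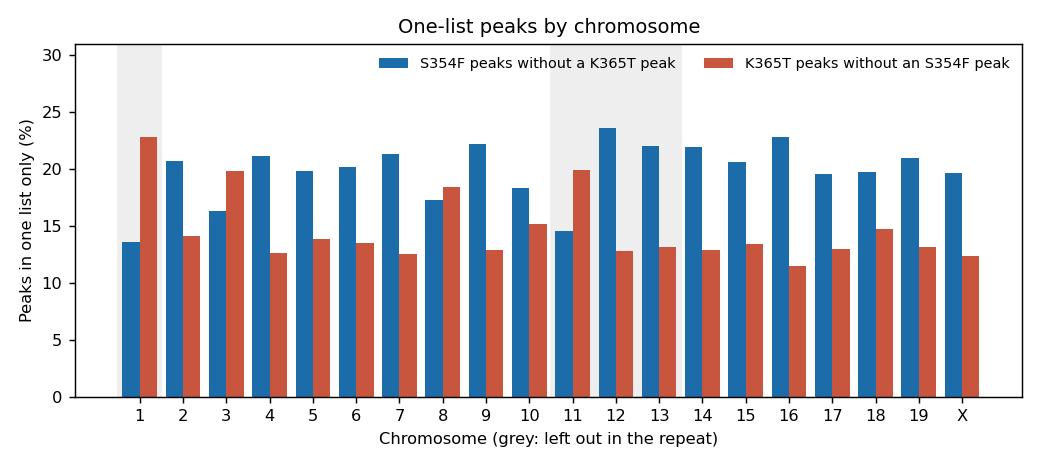
Percent of S354F peaks without a K365T peak (blue) and of K365T peaks without an S354F peak (red) on each chromosome but Y; grey marks chromosomes 1, 11, 12 and 13, left out in the repeat. K365T-only peaks are the larger share on chromosomes 1, 3, 8 and 11, and S354F-only peaks on all others shown.

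The windows of 1 Mb with the widest gaps followed the same chromosomes. On chr2:31000001-32000000 there were 52 S354F-only and 9 K365T-only peaks, and on chr4:149000001-150000000 there were 52 and 12. The remaining 3 windows led by S354F lay on chromosomes 16, 12 and 2, with 40 to 46 S354F-only and 6 to 14 K365T-only peaks. All 5 windows led by K365T lay on chromosomes 1 and 11. The first, chr11:87000001-88000000, held 40 K365T-only and 10 S354F-only peaks.

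Long genes held the most one-list peaks, and the leading genes of the mutants mostly differed. Counts here are over the gene body plus 1 kb, and they rise with gene length. The teneurin gene Tenm4, a 740 kb gene for an adhesion receptor, held 26 S354F-only peaks of 98 and 11 K365T-only peaks of 86. Magi1, a scaffold of cell junctions, held 25 of 102 and 5 of 84. Rere, a corepressor of the atrophin family, showed the most one-sided count, with 22 of 63 in S354F and 1 of 44 in K365T. Pard3, a polarity protein, held 18 of 55 and 2 of 40, and Lpp, a LIM-domain adhesion protein, 20 of 59 and 2 of 42. Exoc4 of the exocyst, the receptor phosphatase Ptprg and Prickle2 of the planar polarity pathway held 23, 23 and 18 S354F-only peaks against 6, 7 and 8 K365T-only ones.

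K365T led at another set of long genes. Tmem132d held 19 K365T-only peaks of 61 and 6 S354F-only peaks of 48. The teneurin gene Tenm3 held 19 of 91 and 9 of 80, the cadherin gene Cdh13 17 of 59 and 5 of 45, the transcription factor gene Zfhx3 15 of 73 and 8 of 61, and the oxidoreductase gene Wwox 18 of 56 and 16 of 52. Of these, Tenm3, Cdh13, Zfhx3 and Wwox lie on chromosome 8, where K365T-only peaks were the larger share over the whole chromosome, while Pard3, led by S354F, lies there too. The predicted genes Gm37013, Gm38666 and Gm38667 overlap each other across the clustered protocadherins on chromosome 18 and share most of their peaks, so they count as 1 locus, with 17 K365T-only and 9 S354F-only peaks in Gm37013. Nav2 and Etl4 were among the 10 genes with most one-list peaks in both directions.

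Most genes with an open end in one mutant had one in the other. Of 21887 protein-coding genes, 14761 had a peak within 1 kb of an end in both lists and 6409 in neither. Of the 15161 with such a peak in S354F, 400 (2.64%) had none in K365T, and of the 15078 with one in K365T, 317 (2.1%) had none in S354F. Ctcf itself had 7 peaks in each list, 2 of them in one list only on each side, and its end peak stood at percentile 77.7 in S354F and 80.04 in K365T.

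Among 397 genes of the 21 lists chosen for stem cells and CTCF, 11 had a gene-end peak in S354F alone and 7 in K365T alone. Over all protein-coding genes with an end peak, these shares were 400 of 15161 (2.64%) and 317 of 15078 (2.1%). The counts are therefore not read as a difference particular to the listed genes. For Otx2, Kdm6a, Hoxc12 and Lefty2 on the S354F side, and Hoxc4 on the K365T side, a peak at the end overlapped a peak of the other list that stopped short of the 1 kb window, so peak borders enter the call. The remaining 13 stood below the middle of their list. Dppa4, a marker of the pluripotent state, had an S354F-only peak at percentile 10.7, Pax6, a neural transcription factor, one at 9.84, Kdm2b, a histone demethylase that recruits Polycomb, one at 15.3 and the integrin gene Itgav one at 48.8. Dcn, a proteoglycan of fibroblasts, had a K365T-only peak at percentile 34.5 and the imprinted RNA gene Mirg one at 17.3. In the Hox list, Hoxa2 had 2 S354F-only end peaks, at percentile 7.19 or below. Among the clustered protocadherins, whose promoters are known CTCF sites, Pcdha4, Pcdhac1, Pcdhb3 and Pcdhb12 were K365T alone and Pcdhb10 and Pcdhb21 S354F alone, all at percentiles 13.8 to 39.1.

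Most cell state markers had an open end in both lists. Of 20 genes of naive pluripotency, 17 had a gene-end peak in both mutants and Dppa4 was the sole difference. Ends of lineage genes were open too, in both lists for 11 of 12 neural, 11 of 12 mesoderm, 9 of 10 trophoblast, 8 of 11 formative and primed, 6 of 9 primitive endoderm and 5 of 8 fibroblast genes; Otx2, Pax6 and Dcn, given above, were the differences in these lists. Expression was not measured. None of the 12 genes of the 2-cell-like state had a peak in either list.

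The share of one-list peaks inside listed genes was higher for S354F than for K365T in 17 of the 20 lists with peaks, as it was over all peaks, and higher for K365T in 3. In the list of CTCF, cohesin and its loaders, 31 of 116 K365T peaks (26.7%) and 22 of 102 S354F peaks (21.6%) were in one list only. Of the 31, 9 were at Stag1, a cohesin subunit, and 5 at Nipbl, the cohesin loader, and 24 of the 31 were WT peaks. The strongest of those at Stag1 and Nipbl stood at percentile 56.3 in K365T. In the clustered protocadherins, 18 of 76 K365T peaks (23.7%) and 9 of 64 S354F peaks (14.1%) were in one list only. In the germ line list the shares were 8 of 58 (13.8%) for K365T and 5 of 53 (9.43%) for S354F. Both are below the shares over all peaks, 15.2% for K365T and 19.5% for S354F. S354F led at the chromatin remodellers, with 45 of 174 (25.9%) against 20 of 157 (12.7%), and at the Polycomb and Trithorax genes, with 39 of 151 (25.8%) against 17 of 132 (12.9%). Only 1 listed peak of the strongest 20% was in one list alone, an S354F-only peak at Gsk3b, the Wnt pathway kinase that CHIR99021 inhibits, at percentile 82.0, which was also a WT peak.

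**Figure D5:**
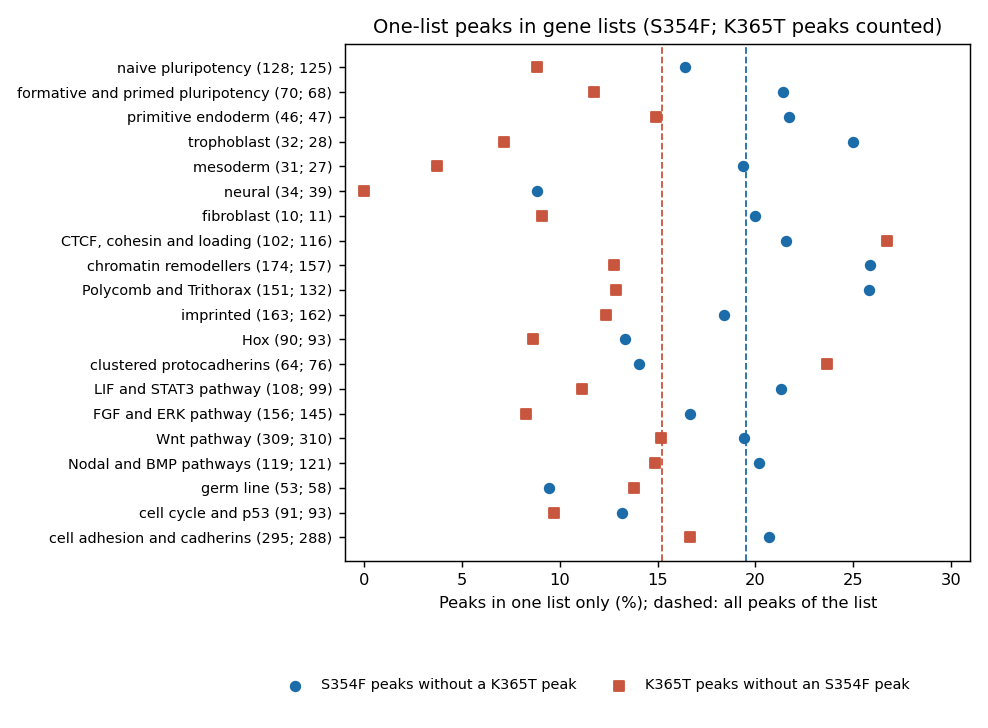
Percent of peaks within listed genes (body plus 1 kb) that are in one list only, for S354F (blue circles) and K365T (red squares); numbers in brackets are the S354F and K365T peaks counted, and dashed lines are the 19.5% and 15.2% of all peaks. The list of 2-cell-like genes, with no peak, is not drawn; the CTCF and cohesin, protocadherin and germ line lists are those where the K365T share is the higher.

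Promoters open in one mutant alone were poorer in CpG than those open in both. Alone means here that no peak of the other list reached the 250 bases before the start. The peak there may still overlap a peak of the other list that stopped short, so peak borders enter these classes. In these windows lay 394 S354F-only and 332 K365T-only peaks. Over 27025 genes with 1 start each, the 250 bases before the start held a median of 15 CpG where both mutants had a peak, 6 where S354F alone did, 5 where K365T alone did and 2 where neither did. Of the genes in these classes, 81.4%, 57.4%, 51.6% and 49.6%, in the same order, were protein-coding. The part of gene type and of peak strength in the CpG difference was not tested. Over all annotated starts, 743 of the 16251 starts with an S354F peak had none in K365T (4.57%), and 500 of the 16008 with a K365T peak had none in S354F (3.12%). A core of the CTCF motif, made of CCA, AG and GGC in this order with any 2 bases between neighbours, was searched on both strands and occurred in 2.05% of all promoters. It occurred in 2.58% of those open in both, in 14 of 554 open in S354F alone (2.53%, interval 1.39 to 4.20), in 16 of 395 open in K365T alone (4.05%, interval 2.33 to 6.49) and in 1.46% of those open in neither. The intervals of both one-list groups hold the value of the shared group, so no difference could be seen at these counts.

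Of the promoters counted for CpG, 318 open in S354F alone and 204 open in K365T alone belonged to protein-coding genes, before any chromosome was left out. Among protein-coding genes, the motif fell inside the one-list peak in 7 promoters for S354F and 2 for K365T. These small counts come from groups of unequal size and are not read as a difference between the mutants. Among the 7 promoters, the strongest peaks belong to Gapdhs, the sperm form of a glycolytic enzyme, at chr7:30743826-30743905 on the minus strand, and Rufy4, a regulator of autophagy, at chr1:74125291-74125350 on the plus strand. The 2 for K365T are Pcp4, a regulator of calmodulin, at chr16:96467555-96467605 on the plus strand, and Rasgrp2, an exchange factor for Rap1, at chr19:6401591-6401670 on the plus strand. They are shown because they carry the motif letters within a site open in one mutant alone, and capitals mark the match.

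Gapdhs: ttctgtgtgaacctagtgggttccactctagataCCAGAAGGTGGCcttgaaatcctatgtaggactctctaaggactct
Rufy4: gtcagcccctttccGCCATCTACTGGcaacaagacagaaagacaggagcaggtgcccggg
Pcp4: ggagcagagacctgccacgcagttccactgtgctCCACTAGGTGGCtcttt
Rasgrp2: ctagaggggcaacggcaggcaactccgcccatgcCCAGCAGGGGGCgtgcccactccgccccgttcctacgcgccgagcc

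The Gapdhs and Rufy4 peaks stood at percentiles 55.8 and 41.0 of the S354F list, had no WT peak, and had a K365T peak 117 and 166 bp away. The Pcp4 and Rasgrp2 peaks stood at percentiles 58.8 and 17.5 of the K365T list, were WT peaks, and lay 4436 and 809 bp from the nearest S354F peak. A match is a run of letters and not a measured binding site.

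Of 1005 microRNA hairpins, 311 had a peak within 1 kb in both lists and 619 in neither. An S354F peak but no K365T peak lay within 1 kb of 37 hairpins, 10.6% of those near an S354F peak. The reverse held for 38, 10.9% of those near a K365T peak. At some of these the nearby peak overlaps a peak of the other list that stopped short of the 1 kb window, so peak borders enter both counts. In the imprinted cluster between Dlk1 and Mirg on chromosome 12, 2 of 57 hairpins had an S354F peak within 1 kb, 6 had a K365T peak and 18 a WT peak. That interval held 9 S354F, 22 K365T and 44 WT peaks. Of the 22, 15 were K365T-only, 14 of them WT peaks, and of the 9, 2 were S354F-only. Chromosome 12 is among those left out in the repeat. Over the whole of it, 12.8% of K365T and 23.6% of S354F peaks were in one list only. The mature 3p arms of the 4 hairpins there with a K365T peak and no S354F peak within 1 kb are shown with the seed, bases 2 to 8, in capitals, from RefSeq (GRCm38.p6, all on the plus strand).

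mmu-miR-370-3p: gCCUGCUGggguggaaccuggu
mmu-miR-376b-3p: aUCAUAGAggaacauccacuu
mmu-miR-376a-3p: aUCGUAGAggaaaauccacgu
mmu-miR-300-3p: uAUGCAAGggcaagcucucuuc

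No seed is shared among the 4 arms. The peak near Mir370 stood at percentile 56.3 of the K365T list, the one near Mir376a and Mir376b at 24.2 and the strongest within 1 kb of Mir300 at 61.1, and all were WT peaks.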

How the data were processed

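Omni-ATAC-seq was measured in 2 replicates each of S354F, K365T and WT, within a series of 20 samples and 10 genotypes. Bowtie2, MACS2, Trim Galore and deepTools, with no version, and the mm10 build are listed in the submitters' processing notes. How duplicates and adapter offsets were treated, and the calling threshold, no source used here gives. Both replicates of a genotype entered 1 peak list deposited by the authors, with a position, a name and 1 value per peak. From its range and steps, that deposited value was read as a fold (ratio) over expected coverage. Of these values 31.1% (S354F) and 30.4% (K365T) lay, within 1.1e-05, on whole multiples of 1 step, and background coverage was computed as 1/step minus 1. Read totals were not used here.

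Lists were compared by overlap of at least 1 bp, with Python 3.11.15, numpy 2.4.6, pandas 2.3.3 and scipy 1.17.1, after the overlap code was tested on simulated intervals. Genes, starts and microRNAs came from RefSeq tables of GRCm38.p6, and a gene-end peak lies within 1 kb of an end. Distances in kb to a named gene run from the nearest edge of the peak. Intervals are exact Clopper-Pearson at 95%.

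Named items were the 10 strongest one-list peaks per list, the 5 largest percentile shifts each way, the 10 genes with the most one-list peaks each way (all without chromosomes 1, 11, 12 and 13), listed genes with an end peak in one list, the 5 widest 1 Mb windows each way, Ctcf, and the 5 strongest sites missing from 1 list alone. A peak was named by the protein-coding gene it lies in or the nearest one. The Stag1, Nipbl and Gsk3b peaks and the printed promoters and microRNAs were chosen after their values were seen; promoters on chromosome 18 were left out of that choice and of the count with the motif inside a peak. The members and gene lists were chosen with earlier results of these data known.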

Additional observations from a re-analysis of the deposited data

How the results depend on the processing

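Each share was recomputed under other settings, and a change counts where it exceeds the counting interval. With every list cut to its strongest peaks, as many as the shortest list (R339Q) holds, 81.2% of S354F and 84.0% of K365T peaks were shared, 46.2% of S354F-only and 40.05% of K365T-only peaks were WT peaks, 0.0496% and 0.277% of the strongest 20% were in one list, and 5.97% and 5.83% of one-list peaks lay at gene ends. Without chromosomes 1, 11, 12 and 13, the shared shares were 79.8% and 85.8%, the WT share of K365T-only peaks was 60.6% and its strong one-list share 0.266%; the other values there stayed within the intervals. Requiring an overlap of 50% of both peaks gave 72.7% and 73.1% shared, 59.4% and 45.3% in WT, 3.13% and 3.52% of strong peaks in one list, and 8.37% and 10.6% at gene ends. Among the stronger 50% of peaks, 97.3% and 96.1% were shared, 89.2% and 71.5% of one-list peaks were in WT, and 3.61% and 4.04% lay at gene ends, so S354F then had the higher shared share. Of the strongest 10%, 0.00712% (1 peak, at Trmt10c) and 0.0788% (11 peaks) were in one list. The majority of one-list peaks with a WT peak was thus lost for both mutants with lists of equal length, and for K365T with the 50% overlap. A gene-end window of 500 bp gave 3.73% and 3.44%.

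An alternative chosen after seeing the data left out chromosomes 1, 3, 8, 10, 11, 12 and 13, and gave 79.2% and 86.8% shared. Of the strong peaks, 0.101% for S354F (interval 0.06 to 0.16) and 0.216% for K365T (interval 0.152 to 0.298) were then in one list. These intervals overlap, unlike those over all chromosomes. Another, also chosen after seeing the data, left out the one-list peaks at skipped peak numbers (245 for S354F and 224 for K365T), and all 4 shares recomputed stayed within their intervals. Skipped numbers touched 1 of the 23 and 6 of the 98 strong one-list peaks.

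No paired analysis was possible because the authors pooled both replicates into 1 list per genotype, and for the same reason leaving out a replicate was not run. Depth limits the weak peaks most, and background coverage was lower in K365T; its part in the weak S354F-only peaks was not tested. The WT share depends on the length of the WT list. Genotype, clone, chromosome copy number, transgene level and library batch cannot be told apart with 1 list each.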
